A study of Homo sapiens with 24 samples.

Results

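The Ago2 mRNA CLIP comparison of arsenite-treated with untreated 293S cells covered 24041 peaks in 6088 genes. All peaks of the authors' table for these libraries were taken. Each has a log average (normalized CLIP abundance over both conditions) and a log ratio (arsenite over untreated). The comparison used 8 of the 24 samples of the series, 4 biological replicates of untreated control cells and 4 of cells given 1 mM sodium arsenite during 30 min. All came from 293S, an adherent line of human embryonic kidney origin kept in serum medium, and all were precipitated with the same Ago2 antibody from Abnova. The RNA-seq made from the same 8 cultures and the CLIP libraries of the LO band were not analysed here. The table holds 1 value per peak over all replicates, so no spread between replicates, no test over replicates and no depth can be given, and every value below describes this table. The base of the logarithm and the normalizer are not stated, so values are printed on the authors' log scale and are not turned into folds. For the same reason, more Ago2 on an RNA and more of that RNA cannot be told apart in a log ratio, and the place of 0 rests on the authors' scaling. Whether a low log average means few reads is likewise not known. The median log average was -4.37 over genes with 1 peak and -5.71 over genes with 20 or more. Of 8 markers of this line, 4 had a peak (NEFL, VIM, CDH2 and LIN28B), and of 15 markers of fibroblasts, blood and liver 0 had one.

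Argonaute 2 binds a miRNA and is led by it to RNAs that pair with the miRNA's seed, the bases 2 to 8 from its 5′ end. Most well-studied sites lie in the 3′ untranslated region (3'UTR), and binding lowers the stability or translation of the mRNA. In CLIP the protein is crosslinked to its RNA and precipitated, and the sequenced fragments pile up as peaks where it was bound. Arsenite reacts with thiols, causes oxidative and proteotoxic stress, halts translation initiation through phosphorylation of eIF2 alpha and drives mRNAs into stress granules.

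The table marks each peak that holds a match to the seed of any of 50 miRNA families. The families below are shown because their matches fell unevenly, in small numbers, between the genes with the highest and the lowest medians, described further on. Each is the mature RNA from RefSeq (GRCh38.p14), 5′ to 3′, with the seed in capitals. The first 5 had matches among the 111 peaks of the 15 highest genes and 0 among the 116 peaks of the 15 lowest genes, and the last 3 had most or all of theirs in the lowest genes.
hsa-miR-17-5p: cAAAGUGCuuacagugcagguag
hsa-miR-19b-3p: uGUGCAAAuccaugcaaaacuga
hsa-miR-130b-3p: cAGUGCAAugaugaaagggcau
hsa-miR-181a-5p: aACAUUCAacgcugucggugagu
hsa-miR-27a-3p: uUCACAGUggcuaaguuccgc
hsa-miR-1913: uCUGCCCCcuccgcugcugcca
hsa-miR-18a-3p: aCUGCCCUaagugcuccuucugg
hsa-miR-34a-5p: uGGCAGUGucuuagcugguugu
The miR-17 family matched 6 peaks of the highest genes, the miR-130 family 5, miR-181 5, miR-19 4 and miR-27 4. The family that the table lists as miR-1913 and miR-324-3p matched 6 peaks of the lowest genes, in AMDHD2, CHKB, DVL1, KIAA1984-AS1 and ZNF740, and 0 of the highest. For miR-18a-3p the counts were 4 in the lowest genes and 1 in the highest, and for miR-34a-5p 3 and 0. Over all peaks, 2.98% matched the miR-17 family, 2.31% miR-19, 1.73% miR-130, 1.01% miR-181 and 0.93% miR-27, and 1.15% matched the miR-1913 family, 0.70% miR-34 and 0.67% miR-18a-3p. At such shares few matches fall among so many peaks, so the counts of 0 to 6 are small numbers and are given as a description. Some of these matches share a sequence, since the seeds of miR-17, miR-19 and miR-130 overlap each other in letters and overlapping peaks hold the same site. In G or C content the 5 seeds of the first kind have 2 or 3 of 7 letters, and the last 3 have 5 or 6. These families were picked for their uneven split, and not all others divided by letters in this way. The miR-125a-5p seed has 5 such letters, with 2 peaks in the highest and 1 in the lowest genes. For miR-146a-5p, with 3 letters, the counts were 1 and 2.

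Over all families, peaks with 5 or 6 G or C letters in the seed had lower medians than those with 0 to 3. A RefSeq sequence with a single seed was found for 44 of the 50 families, and peaks that matched only 1 of them were grouped by the number of G or C letters in that seed. With 3 such letters the median log ratio was 1.47 (1824 peaks, 13 families), with 4 it was 0.76 (2422 peaks, 16 families), and with 5 it was 0.30 (450 peaks, 5 families). Seeds with 2 such letters had a median of 1.25 (664 peaks, 7 families). The 1 family with 0 letters had 1.26 (45 peaks), the 1 with 1 letter 0.98 (32 peaks) and the 1 with 6 letters 0.34 (143 peaks). The median thus went down from 3 to 5 letters and showed no such order from 0 to 3 or from 5 to 6. The order from 3 to 5 letters was the same among 3'UTR peaks, with medians of 1.56, 0.87 and 0.33, and among peaks in coding sequence (CDS), with 1.40, 0.69 and 0.37. Over the 43 families with at least 20 peaks, the family's median and its G or C count had Pearson's r = -0.58 and Spearman's rho = -0.62. This is a description over families whose peaks come from the same libraries and partly from the same sites, and the base composition around the sites was not tested. The order was not strict: the let-7 seed (GAGGUAG) has 4 such letters and its 350 peaks a median of 1.42, and miR-146a-5p has 3 and its 77 peaks a median of 0.53.

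Over genes, the log ratio was mostly positive. Each gene was given the median of its peaks. Of the 6088 genes, 4951 (81.3%) had a median above 0 and 1137 (18.7%) one below 0, whereas 70.3% of single peaks lay above 0. A median above 1 was reached by 2853 genes (46.9%), and 204 genes (3.35%) lay below -1. The median over genes was 0.91, with quartiles of 0.22 and 1.60, and the 5th and 95th percentiles were -0.78 and 2.52.

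Genes with many peaks had lower values than genes with few. The 2339 genes with 1 peak had a median of 1.10, and the value was lower in each class of higher peak number, down to 0.74 for 5 to 9 peaks (913 genes), 0.56 for 10 to 19 peaks (378 genes) and 0.28 for 20 or more (151 genes). In the last class 67.5% of genes lay above 0. Without genes that have noncoding exon peaks, the ends of this order were 1.09 and 0.30. The peak with the highest log average of each gene showed the drop later: its median was 1.13 for genes with 5 to 9 peaks and 0.48 for genes with 20 or more. The highest peak of a gene had about the same value from 5 peaks on, with medians of 2.01, 2.04 and 2.02 over the last 3 classes, while the lowest peak went from -0.50 for 5 to 9 peaks to -1.42 for 20 or more. The extremes of a larger number of peaks can lie further out by number alone, and this part was not separated.

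**Figure D1:**
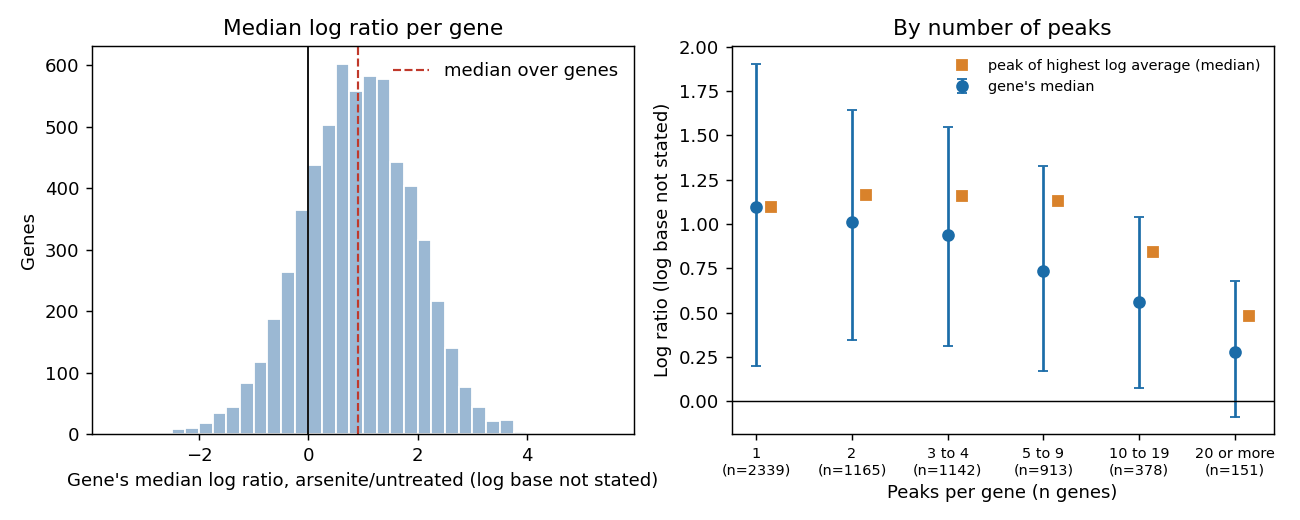
Left, number of genes by their median log ratio (authors' log scale), with the median over genes as a dashed line. Right, median (circles) and quartiles (bars) of the gene medians by the number of peaks per gene, and the median for the peak of highest log average (squares). The bulk of the histogram lies right of 0 around 0.91, and the circles go down from 1.10 to 0.28.

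Of the 5 genes with the most peaks, 4 are described here, and their medians lay between -0.81 and 0.26. MALAT1, a nuclear RNA of splicing speckles, had 105 peaks with a median of -0.81, and 3 of them lay above 0. KCNQ1OT1, the imprinted antisense RNA that silences neighbours of KCNQ1, had 66 peaks with a median of -0.38 and 21 above 0. ANKRD52, a subunit of the phosphatase complex that acts on Argonaute, had 69 peaks with a median of -0.07 and 31 above 0. SRRM2, a scaffold of nuclear speckles, was the only one of the 4 above 0, with 64 peaks, a median of 0.26 and 40 above 0.

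Peaks of the same gene differed widely in log ratio. In the 2584 genes with at least 3 peaks, the standard deviation over the peaks of a gene had a median of 0.86, with quartiles of 0.62 and 1.10. Differences between genes made up 31.9% of the variance of the log ratio (SD between genes 0.64, within genes 0.93). The log average behaved in another way, with 86.0% of its variance between genes. Peaks of a gene thus shared their log average more than their log ratio. The normalizer is unknown, and its part in this share was not tested.

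In most genes with 5 or more peaks, the peaks lay on both sides of 0. Of 1442 such genes, 1115 (77.3%) were mixed, 308 (21.4%) had every peak above 0 and 19 (1.32%) every peak below. Peaks on the opposite side of 0 from their gene's median numbered 3826 of 15487 (24.7%). In 447 of the genes at least 1 peak lay above 1 and another below -1. The distance from the lowest to the highest peak of a gene had a median of 2.64.

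Likeness between peaks depended on the distance between them. Overlapping neighbours in a gene, which can share reads, differed by a median of 0.39 (3682 pairs, r = 0.77), and 239 of these pairs had identical values. For neighbours 0 to 49 nucleotides apart the median difference was 0.74 (r = 0.49), and for those at least 200 and under 1000 nucleotides apart 0.86 (r = 0.33). Neighbours at least 10000 nucleotides apart on the genome differed by 1.03 (1503 pairs, r = 0.15). Next peaks that belonged to another gene on the chromosome differed by 1.09 (6115 pairs, r = 0.07). These correlations are over pairs of peaks from the same libraries, in which a peak can occur in 2 pairs. The steepest change in likeness was thus between overlapping peaks and peaks that only lie close.

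**Figure D2:**
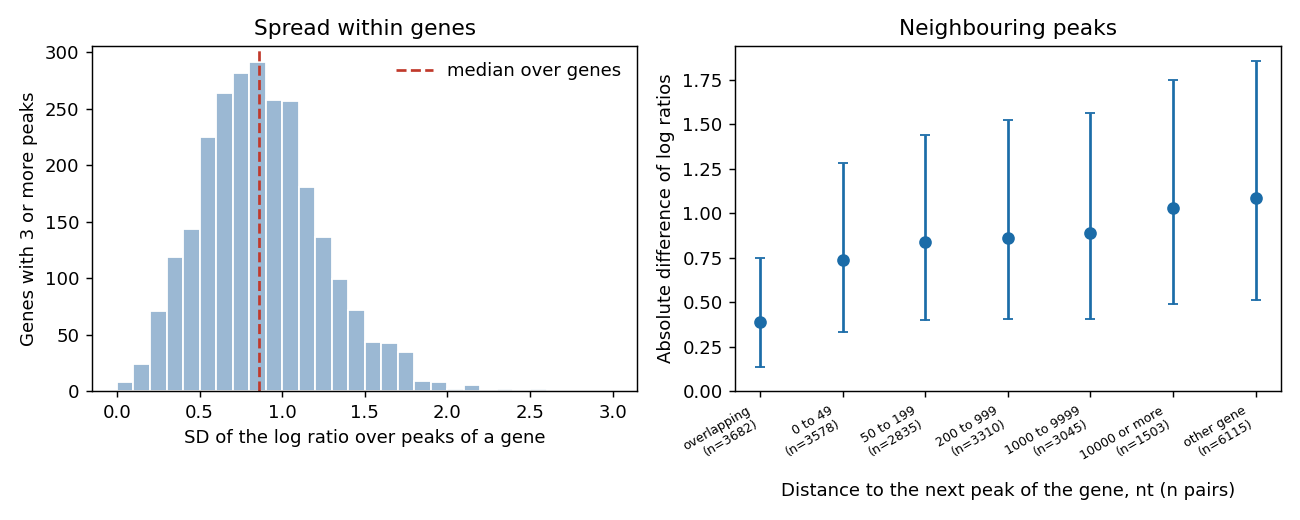
Left, genes with at least 3 peaks by the standard deviation of the log ratio over their peaks, with its median of 0.86 dashed. Right, absolute difference in log ratio between neighbouring peaks by distance (median and quartiles), which goes from 0.39 for overlapping peaks to 1.09 for the next peak in another gene.

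Some single transcripts spread over more than 5 units. KLHL15, an adaptor for a ubiquitin ligase, had 16 peaks from -2.31 in its CDS to 2.997 in its 3'UTR (chrX:24005011-24005053, hg19) in the authors' deposited table, and the highest peak matched the miR-17 family. Elsewhere in its 3'UTR, a peak with a miR-25 match had 2.72 and the peak adjoining it -0.39 in the authors' deposited table. CANX, the lectin chaperone calnexin, had 27 peaks from -1.22 to 4.04, with 20 above 0. Its 3 highest peaks lay side by side in the 3'UTR (chr5:179156528-179156656), at 4.04, 2.69 and 3.20 in the authors' deposited table, and matched no listed family. Of the other widest genes, ATP2A2, the calcium pump of the endoplasmic reticulum, ran from -1.42 to 3.81 over 17 peaks. HNRNPU, an RNA-binding protein of the nuclear matrix, ran from -2.05 to 3.10 over 49 peaks. The lincRNA model TCONS_00017361 ran from -2.63 to 2.86 over 42 peaks.

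Other transcripts had a narrow range of log ratios over their peaks. OAZ1, the ornithine decarboxylase antizyme, had 11 peaks between 0.21 and 1.49, all above 0. CALML4, PHPT1 and BCL2L12 had 10, 11 and 10 peaks, all above 0, with medians of 0.68, 0.93 and 0.80. The 5'UTR held 9 peaks of CALML4 and 8 of PHPT1, and the peaks of CALML4 all lay within chr15:68497637-68498382. Some peaks of CALML4 and BCL2L12 overlap and can share reads, so these narrow ranges do not show evenness along a whole transcript. The 21 peaks of NELF lay between -0.18 and 1.34, and 19 of them were above 0. Every one of these 5 narrow genes had a median between 0.68 and 1.13, near that of all genes.

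The genes with the highest medians, among those with at least 5 peaks, were of mixed function. RPN2, a subunit of the oligosaccharyltransferase that adds sugars to nascent proteins, led with a median of 3.47 over 12 peaks (chr20:35807747-35869849). From the 5′ end its peaks had 1.97, 2.62, 4.05, 1.81, 0.58, 3.89, 3.22, 3.73, 3.82, 4.37, 4.08 and 2.48 in the authors' deposited table. All 12 lay above 0. The lowest, a CDS peak at 0.58, was also the RPN2 peak with the highest log average, a measure with a median of 1.10 over all genes. The top pair were overlapping 3'UTR peaks with a match to the miR-181 seed shown above. CDC5L, a spliceosome component, had a median of 2.87 over 7 peaks (chr6:44364103-44416838). Its CDS peaks had 2.87, 2.87, 0.52, 2.71 and 3.22 and its 3'UTR peaks 2.83 and 3.59 in the authors' deposited table. The 2 equal values belong to overlapping peaks, and the highest peak held matches to the miR-17, miR-19 and miR-130 seeds together. SCARB2, the lysosomal receptor that carries glucocerebrosidase, had a median of 2.83 over 6 peaks (chr4:77081566-77134675). Its 3'UTR peaks had 3.60, 3.86, 3.29 and 0.63 and its CDS peaks -0.36 and 2.37 in the authors' deposited table, so 1 of the 6 lay below 0.

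The next genes in this order were RABEP1, a Rab5 effector of endosome fusion, with 2.81 over 5 peaks, the zinc finger gene ZNF800 with 2.74 over 5, and LPHN2, an adhesion receptor, with 2.66 over 7. ZNF800 had a 3'UTR peak with seed matches of miR-19, miR-27 and miR-130 at 3.30, and another with a miR-17 match at 2.74, in the authors' deposited table. BTG3, an antiproliferative protein, had 2.60 over 7 peaks, all above 0 and between 1.51 and 2.84. RPPH1, the RNA subunit of RNase P, was the only noncoding RNA among the highest 15, with 2.58 over 5 peaks between 1.98 and 2.74. Its peaks overlap or lie close together on a short RNA. The remaining 7 were FAM120A, an RNA-binding protein, with 2.49, CCDC117 with 2.45, the chromatin protein HMGB2 with 2.43, the ceramide desaturase DEGS1 with 2.40, the mitochondrial phosphate carrier SLC25A3 with 2.39, the secreted glycoprotein FSTL1 with 2.29 and the acyltransferase LPGAT1 with 2.28. At its peak of highest log average FSTL1 had 0.40. By that measure the highest genes other than RPN2 and FSTL1 had 2.27 or more. Of the 111 peaks of the 15 genes, 106 lay above 0. Some of these ranks rest on peaks of low log average, a value that need not follow the number of reads. With peaks in the upper 75% of log averages, CDC5L kept 1 peak and LPHN2 3, and RABEP1 and LPGAT1 had no value. RPN2, ZNF800, BTG3, FAM120A, CCDC117, HMGB2, DEGS1 and FSTL1 kept all of their peaks.

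Genes with the lowest medians were a mixed group of enzymes, adaptors and noncoding RNAs. CHKB, which encodes choline kinase beta, had -2.01 over 5 peaks (chr22:51017590-51021059). From the 3' end, its 3'UTR peak had -1.08 and its CDS peaks 0.01, -2.01, -2.79 and -2.07 in the authors' deposited table. One peak therefore stood at 0 while 3 lay below -2. TELO2, a co-chaperone adaptor that stabilizes kinases of the mTOR and ATM family, had -1.86 over 9 peaks (chr16:1544433-1560341). Its CDS peaks had -2.24, -1.54, -1.41 and -2.18 and its 3'UTR peaks -1.52, -1.77, -2.65, -1.86 and -1.98 in the authors' deposited table. All 9 lay below -1, in both regions alike, and the lowest held a match to the miR-34 seed. AMDHD2, a deacetylase of N-acetylglucosamine phosphate, had -1.77 over 11 peaks (chr16:2579025-2580875), from -2.25 to -0.47 and all below 0.

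ZNF740 followed with -1.45 over 6 peaks, all in its 3'UTR and all below 0, and the lincRNA model TCONS_00000032 with -1.35 over 7. DVL1, which passes the Wnt signal on from Frizzled receptors, had -1.26 over 13 peaks, with 2 above 0. DGCR8, the RNA-binding partner of Drosha in miRNA processing, also had -1.26, over 7 peaks. Its 5 CDS peaks lay between -2.34 and -0.73, and its 5'UTR and 3'UTR peaks had 0.20 and -0.09 in the authors' deposited table. DROSHA itself, the nuclease of that complex, had 5 peaks between -0.94 and -0.02, all below 0, with a median of -0.11. CFD, complement factor D, had -1.23 over 7 peaks packed into its 3'UTR (chr19:863139-863607). CPSF7, a subunit of the cleavage factor for 3′ ends, had -1.21 over 5 peaks, with 2 above 0 and a mean of -0.53. The antisense RNA KIAA1984-AS1 had -1.20, and LSS, the sterol synthesis enzyme lanosterol synthase, -1.11. The last 4 were SCARNA2, a Cajal body RNA, with -1.09, ANKS6 with -1.08, WDR27 with -1.08 and the transcription factor PATZ1 with -1.05. Of the 116 peaks of the 15 lowest genes, 12 lay above 0. With overlapping peaks merged, DVL1 had -0.70 over 8 peaks and CFD -0.86 over 4, and 10 of the 15 genes kept their place.

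The ranks at the edge of these groups were close together. The next gene on the high side was FUBP3 with 2.28, beside LPGAT1 with 2.28, and on the low side TARDBP, the RNA-binding protein TDP-43, with -1.04, beside PATZ1 with -1.05. Features that the ranking did not use differed between the groups. Peaks were shorter in the highest genes, with a median length of 43 nucleotides against 56 in the lowest and 53 in all genes with 5 or more peaks. Noncoding exons held 5 peaks of the highest genes, all of RPPH1, and 25 of the lowest, all of KIAA1984-AS1, SCARNA2 and TCONS_00000032. In all genes with 5 or more peaks they held 950 of 15487 peaks. The median log average was -5.43 in the highest genes and -4.43 in the lowest, and TELO2, AMDHD2, CFD and KIAA1984-AS1 had high log averages, with gene medians of -1.87, -0.78, -1.02 and -1.61. Shares of peaks with a listed seed match were close, at 34.2% and 29.3%, beside 27.7% in all genes with 5 or more peaks.

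**Figure D3:**
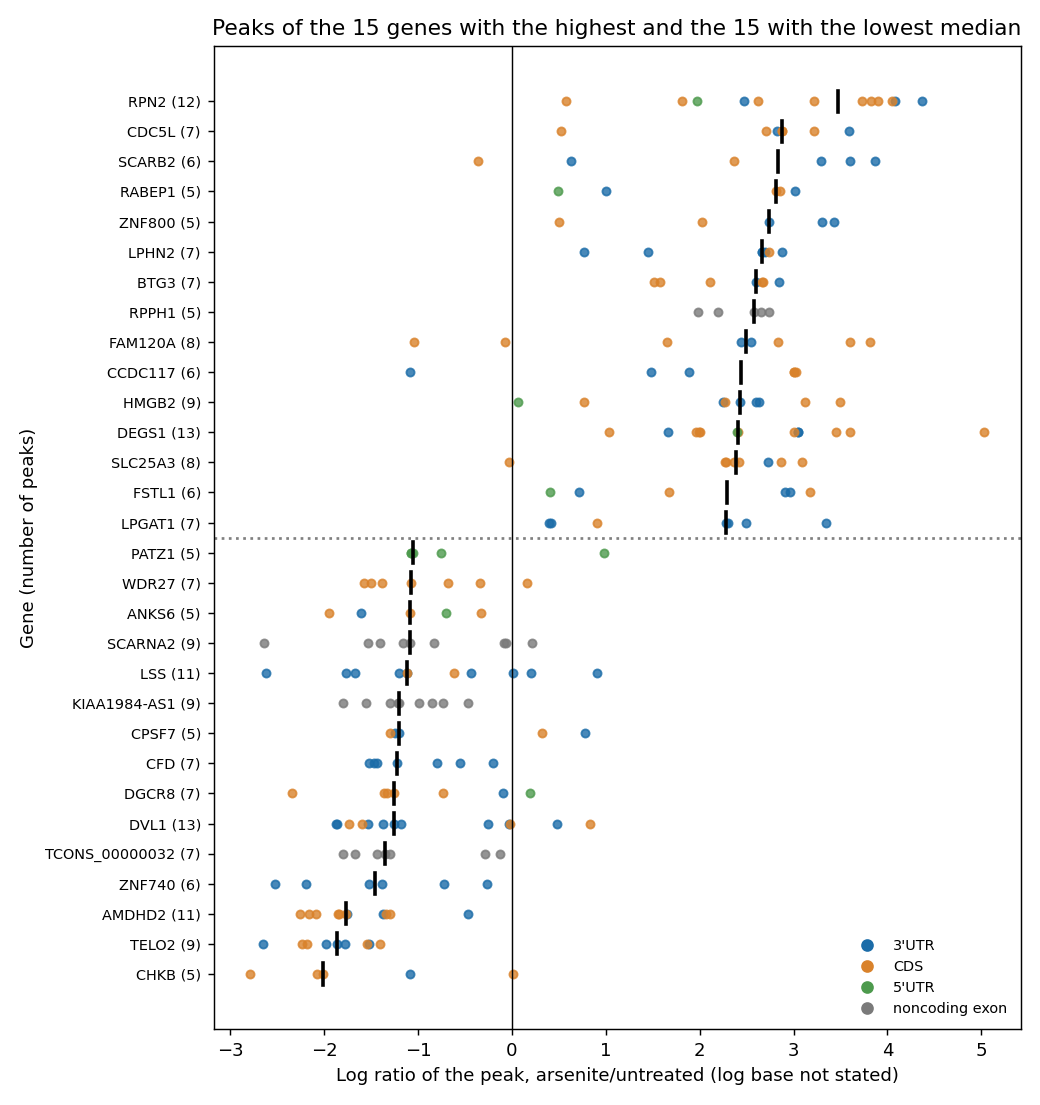
Log ratio of every peak (points, coloured by region) of the 15 genes with the highest and the 15 with the lowest median (black bars), number of peaks in brackets. The gene medians of the upper group lie between 2.28 and 3.47 and those of the lower group between -2.01 and -1.05, and points of many genes spread over more than 2 units.

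Within the same gene, 3'UTR peaks tended to lie above CDS peaks, but not in every gene. In the 770 genes with at least 2 peaks in each region, the 3'UTR median was higher in 482 (62.6%). The 3'UTR medians had a median of 0.87 over genes and the CDS medians one of 0.51, and the difference within the gene had a median of 0.26, with quartiles of -0.38 and 0.86. Both regions lay above 0 in 499 genes and both below in 67. A 3'UTR above 0 with a CDS below was found in 146 genes, and the reverse in 58.

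Single genes differed by more than 2 units between regions, in both directions. LRP8, a receptor for reelin and apolipoprotein E, had 1.85, 1.96 and 2.004 at its 3'UTR peaks and -1.67, -0.87 and -0.80 at its CDS peaks in the authors' deposited table (chr1:53709093-53793584). The 2 sets did not overlap, and the 3'UTR peaks included matches to the miR-17 and miR-130 seeds. FOXC1, a forkhead transcription factor, had 5 3'UTR peaks from 0.75 to 2.83 and 3 CDS peaks from -0.77 to -0.34 in the authors' deposited table. ITGB1, an integrin, SERINC3 and MLL, a histone H3 methyltransferase, had differences of 2.44, 2.36 and 2.27 in the same direction. TRAF4, a signalling adaptor, showed the opposite: its 4 CDS peaks had 2.17, 1.80, 2.26 and 2.20, and its 3'UTR peaks -0.56, -1.17 and 2.03, in the authors' deposited table (chr17:27076011-27077258). Its last 3'UTR peak thus stood with the CDS. USP14, a deubiquitinase of the proteasome, PPP1CC, a catalytic subunit of phosphatase 1, MAP4 and NCKIPSD had differences, 3'UTR minus CDS, of -2.52, -2.15, -2.12 and -2.09. PPP1CC rested on the most peaks of these, with 7 CDS peaks at a median of 2.72 and 6 3'UTR peaks at 0.57.

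**Figure D4:**
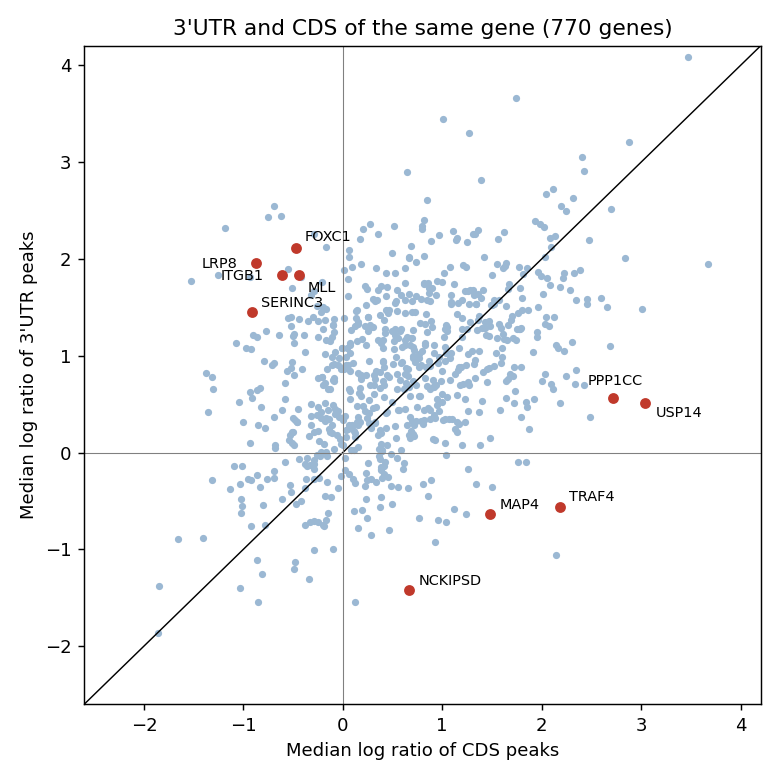
Median log ratio of the 3'UTR peaks against that of the CDS peaks for 770 genes with at least 2 peaks in each (1 point per gene, diagonal at equality). Of the points, 482 lie above the diagonal, and the labelled genes have the largest differences among genes with at least 3 peaks in each region.

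Short peaks had higher log ratios than long ones. Peaks of up to 30 nucleotides had a median of 1.28 (1603 peaks), those of 41 to 50 nucleotides 0.77 (4814 peaks) and those over 80 nucleotides 0.28 (2592 peaks). The same ends were 1.43 and 0.46 in 3'UTRs, 1.14 and 0.21 in CDS, and 0.41 and 0.23 in 5'UTRs. In 1684 genes with peaks of both kinds, peaks of up to 40 nucleotides had a higher median than those over 60 in 975 (57.9%), and the difference had a median of 0.22. Longer peaks also had higher log averages, -4.47 over 80 nucleotides against -5.62 up to 30. Log average and log ratio had almost no rank correlation over all peaks (Spearman's rho = -0.006), but their relation was not flat. In 10 classes of rising log average, the median log ratio was 0.41 in class 1, 0.85 in class 4 and 0.54 in class 10. How the peak caller sets the length is not given in the sources used here, and its part in the order by length was not tested.

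Groups of genes were described by the median of each member, beside 81.3% of all genes above 0, 46.9% above 1 and a median of 0.91 over all genes. Translation genes were split. All 55 ribosomal protein genes with a peak lay above 0, 45 of them above 1, with a median of 1.498. RPL35A had 2.44, RPS19 2.38 and RPS3 2.31. The 36 initiation and elongation factors had a median of 0.92, with 31 above 0 and 17 above 1. EIF4G3, a scaffold of the cap complex, had 2.04, the helicase EIF4A2 1.78 and EIF2S1, the eIF2 alpha subunit phosphorylated in stress, 1.72. EIF3B had -0.23 over 22 peaks. At the peak of highest log average, EIF4A2 had -0.37 and EIF3B 0.17.

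Small noncoding RNAs and histone mRNAs stood on the high side. Of 97 small nucleolar and Cajal body RNAs, which guide modifications of other RNAs, 93 lay above 0 and 78 above 1, and their median was 2.24. SNORD90 had 3.71 over 3 peaks, SCARNA9 0.33, SNORA63 -0.03 and SCARNA2 -1.09. Most of these RNAs have 1 peak, as 97 genes held 130 peaks, and many lie in introns of other genes. All 39 replication-dependent histone genes lay above 0, 28 of them above 1, with a median of 1.32, and HIST1H3A had 3.20. Histone genes resemble each other closely, and the handling of reads shared by such copies is not given in the sources used here.

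Genes of mitochondria and redox defence were also above the median of all genes. Of 94 nuclear genes of the respiratory chain and the mitochondrial ribosome, 85 lay above 0 and 61 above 1, with a median of 1.42. NDUFS6, a complex I subunit, had 2.77, while MRPS25 of the mitochondrial ribosome had -0.97 over 11 peaks and ATP5B of the ATP synthase -0.55 over 5. The thiol redox, glutathione and metal response list had 18 of 20 genes above 0, 15 above 1 and a median of 1.25. Thioredoxin (TXN) had 2.29 over 3 peaks, the lipid peroxidase GPX4 2.31, mitochondrial peroxiredoxin PRDX3 2.15, and the peroxiredoxin of the endoplasmic reticulum, PRDX4, -1.47 over 3 peaks. The median of TXN equals its highest value and that of PRDX4 its lowest, so each rests on peaks of equal value. The remaining peak had -0.20 in TXN and 0.15 in PRDX4. At the peak of highest log average, TXN had -0.20, PRDX3 0.49, PRDX4 -1.47 and GPX4 3.26. With the peak of highest log average for each gene, the median of this list was 0.81 against 1.10 for all genes, so its place depends on how a gene's peaks are combined.

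The lists of stress genes had medians between 0.75 and 0.91. With the peak of highest log average for each gene, the integrated stress list had 1.37 and the heat shock list 1.297, both above the 1.10 of all genes, and the immediate early list 0.89, below it. Heat shock proteins and chaperones had 43 of 51 genes above 0, 23 above 1 and a median of 0.91. HSPA1B, an inducible Hsp70 gene with a near-identical copy, had 2.21 over 9 peaks, whereas HSPH1, an Hsp110 chaperone, had -1.11 over 3 and the co-chaperones STIP1 and DNAJC5 -0.38 and -0.35. The integrated stress and unfolded protein response list had 16 of 18 above 0, 7 above 1 and a median of 0.75. ATF4, its central transcription factor, had -0.68 over 8 peaks, whereas EIF2S1 had 1.72 over 5. Immediate early and short-lived mRNAs had 25 of 34 above 0 and a median of 0.81. EGR1 and SRF, transcription factors of the serum response, had -0.62 over 18 peaks and -0.76 over 10, whereas BTG3 had 2.60 over 7.

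In the silencing machinery itself, 19 of 22 genes lay above 0 and 13 above 1, with a median of 1.13. XRN1, the 5′ to 3′ exonuclease, had 2.27. CNOT1, on which the deadenylases assemble, had 1.93. The nuclear factors DGCR8 and DROSHA were below 0, as given above. Stress granule and cytoplasmic RNA-binding proteins had 29 of 30 genes above 0, 15 above 1 and a median of 1.00. IGF2BP1, an mRNA-binding protein, had 0.01 over 46 peaks, PABPC1, the poly(A) binding protein, 0.02 over 18, and PRRC2A -0.16 over 30. The hnRNP and SR splicing factors were lower, with 29 of 38 above 0, 8 above 1 and a median of 0.56. SRSF1 had -0.75 over 30 peaks with 6 above 0, SRSF9 -0.75 over 3 and SRSF6 -0.54 over 12.

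Signalling, transcription and cell cycle lists had medians from 0.52 to 0.98. The Notch, Wnt and growth factor receptor list had 35 of 44 genes above 0, 11 above 1 and a median of 0.52. TGFBR2 had 1.78 and NOTCH2 -0.03, with 2.07 at the NOTCH2 peak of highest log average. Homeobox genes had 34 of 44 above 0 and a median of 0.58, with HOXD11 at -0.53 and PBX2 at -0.45. Chromatin modifiers had 64 of 76 above 0 and a median of 0.72. The bromodomain protein BRD3 had -0.41 over 13 peaks, 6 of them above 0, and 0.84 at its peak of highest log average. The place of the chromatin list depended on the peaks used: it had 1.19 with the peak of highest log average (1.10 for all genes) and 1.12 with peaks in the upper 75% of log averages (0.97 for all genes). With the peak of highest log average, the Notch, Wnt and receptor list had 0.96 and the homeobox list 0.90, both still below all genes. The 132 ZNF genes had a median of 0.98, with 111 above 0, and the cell cycle list one of 0.81, with 51 of 60 above 0. In that list MCM5, a helicase subunit, had 2.03, PLK1 -0.08 and WEE1 -0.09 over 28 peaks.

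Membrane, lipid and protein turnover lists had medians from 0.70 to 1.03. The list of translocation, glycosylation, folding and early secretory factors had 42 of 49 above 0, 26 above 1 and a median of 1.03, and next to RPN2 it held SEC63, a translocon subunit, with 2.48 and the cargo receptors TMED10 and TMED7 with 2.24 and 2.23. Lipid synthesis genes had the lowest share above 0 of the 22 lists, 23 of 32, with 16 above 1 and a median of 0.96. DEGS1 had 2.40 and ELOVL5, a fatty acid elongase, 1.99, whereas LSS had -1.11 and FASN, fatty acid synthase, -0.42 over 48 peaks with 17 above 0. Solute carriers had 81 of 99 above 0 and a median of 0.80, with SLC17A5, the sialic acid exporter of lysosomes, at 2.52. The RAB, ARF and ARL GTPases had 36 of 41 above 0 and a median of 0.92. ARL2 had 1.99 and ARF3 -0.28, with 7 of the 15 ARF3 peaks above 0. Proteasome subunits and ubiquitin-conjugating enzymes had 40 of 46 above 0, 16 above 1 and a median of 0.70. PSMB1 had 2.14 and PSMD2 -0.53, with 1.10 at the PSMD2 peak of highest log average.

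**Figure D5:**
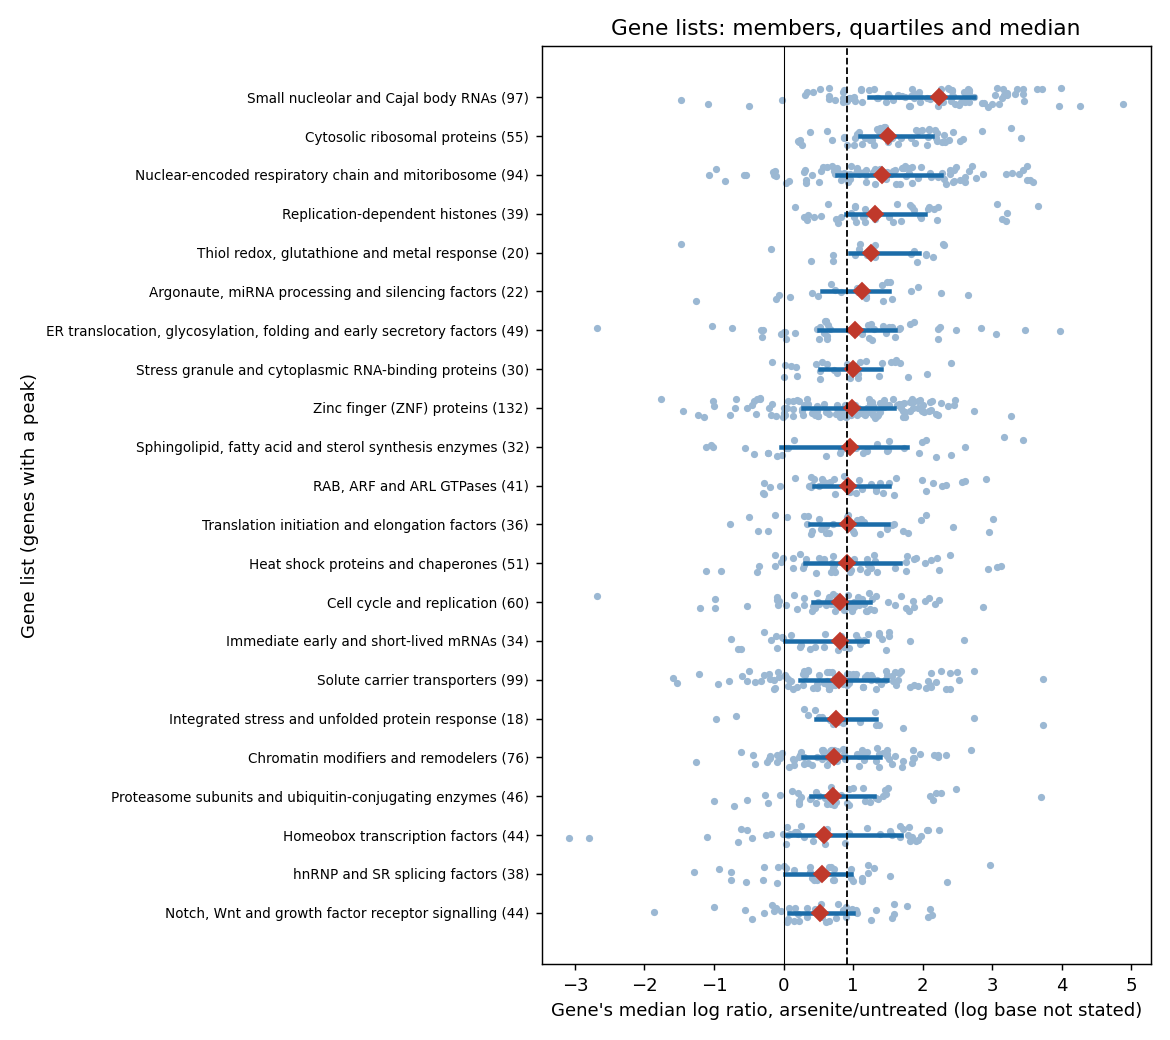
Gene medians (points), quartiles (bars) and list medians (diamonds) for 22 gene lists, number of genes with a peak in brackets, with the median over all genes (0.91) dashed. List medians run from 0.52 to 2.24, and each list spreads over more than 2 units.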

How the data were processed

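The authors deposited 1 table of Ago2 CLIP peaks, in which each peak has a position, gene, region, matching miRNA families, a log average score and a log ratio of normalized abundance, per the file headers. The submitters' processing notes name Bowtie, TopHat, DESeq and hg19 without a role. The peak caller, the normalizer and the log base are not given in the sources, and neither is whether starts count from 0 or 1. The length of a peak counts both its first and last base. Peaks were grouped by gene symbol, with the median for each gene, using pandas 2.3.3 and numpy 2.4.6. Variance was split by 1-way components, tested on simulated data. No per-replicate values were in the table (0 columns), so no test over replicates was run. Named genes were the 15 highest and 15 lowest medians (at least 5 peaks), 5 widest and 5 narrowest ranges (at least 10 peaks), 5 with most peaks, 5 at each end of the 3'UTR to CDS difference, and up to 4 per list (at least 3 peaks) farthest from the median of all genes. Some genes that the rule names are not reported here. Members, lists and tests were chosen with earlier results of these data known. After the table had been seen, the patterns of 3 gene lists, which had caught genes of another function, were corrected, and the descriptions by peak length, seed letters, chromosome and order were added. The alternatives tried were peaks in the upper 75% of log averages, merged overlapping peaks, 3'UTR peaks, peaks of at least 20 nucleotides, other minimum peak numbers, and the mean or the peak of highest log average for each gene.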

Additional observations from a re-analysis of the deposited data

How the results depend on the processing

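The median over genes, the list medians and the 30 named highest and lowest genes kept their sign under the alternatives run. Other named genes did not all keep theirs. BRD3 went from -0.41 to 0.12 with the mean and to 0.84 with the peak of highest log average. At that peak EIF4A2 went from 1.78 to -0.37. Some lists changed sides of the median of all genes. The median over genes (0.91) became 0.97 with peaks in the upper 75% of log averages, 1.08 with 3'UTR peaks and 1.10 with the peak of highest average. The share of genes above 0 (81.3%) became 84.5% with 3'UTR peaks and 79.9% with the peak of highest average. The standard deviation within genes (0.86) became 0.81 with the upper 75%, 0.87 with merged peaks, 0.80 with 3'UTR peaks and 0.88 with at least 10 peaks. The share of variance between genes (31.9%) became 36.3%, 30.0%, 31.8% and 29.2% in that order, and 31.8% with peaks of at least 20 nucleotides. Genes with all peaks on 1 side of 0 became 28.1% with 3'UTR peaks and 6.99% with at least 10 peaks. Of the 30 named highest and lowest genes, 19 kept their place with means, 22 with the upper 75% and 23 with merged peaks. Of the list medians, 10 of 44 recomputed values left the interval of the list's own median. With the peak of highest average, the thiol redox (0.81) and ZNF (1.09) lists fell below the median of all genes (1.10). The integrated stress (1.37), chromatin (1.19) and cell cycle (1.11) lists came to lie above it. With the upper 75% of log averages, the heat shock (0.967), stress granule (0.971) and RAB, ARF and ARL (0.894) lists fell below the median of all genes (0.974). The chromatin list (1.12) came to lie above it. No paired analysis was possible because the table holds 1 value per peak over all replicates, and for the same reason leaving out a replicate could not be run. Depth is unknown, so the error of a single peak is unknown, and ranks of genes with few peaks rest on few values.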

Other observations

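Gene medians differed between chromosomes. The 139 genes on chromosome 22 had the lowest median, 0.35, with 66.9% above 0. Of the 15 genes with the lowest medians, CHKB, DGCR8 and PATZ1 lie on it, and so does CCDC117 of the 15 highest. Chromosomes 19, 17 and 16 followed with 0.66, 0.69 and 0.72 (421, 417 and 223 genes). The highest medians were those of chromosome 4 with 1.31 (166 genes), 18 with 1.26 (86 genes) and 13 with 1.19 (108 genes). Genes of a chromosome share base composition and gene length, which were not measured here.

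Every peak lay below 0 in 19 genes with at least 5 peaks. Besides those named in the report they included INTS1, the largest subunit of the Integrator complex, with a median of -0.79 over 7 peaks, AMH, the anti-Müllerian hormone, with -0.66 over 8, EME2, a subunit of a structure-specific nuclease, with -0.74 over 8, and MAN2C1, a cytosolic mannosidase, with -0.83 over 8. These genes were picked from the 19 after their values were seen.

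The first and the last peak of a region were compared within genes. Between the first and the last peak of the 3'UTR, the last was higher in 52.4% of 1449 genes, with a median difference of 0.08. In CDS it was higher in 55.2% of 878 genes, with a median difference of 0.18.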
